A study of Mus musculus with 6 samples.

Results

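The genes described here are 40 genes of the cell cycle and of DNA replication, listed by what they are known to do in dividing cells. Each was read from the probe sets whose annotation names that gene alone, and where a gene had several, from the one with the highest mean log2 signal over all arrays. This gave values for 39 of the 40 genes, all but Ccnb1, among 13262 genes tested in all.

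The study profiled 6 mouse dendritic cell samples on Affymetrix Mouse430_2 arrays, 1 array each. Bone marrow of C57BL/6 mice was grown with 10 ng/ml GM-CSF, the growth factor used to obtain dendritic cells in culture, and cells were sorted on day 6. Both groups carried the surface proteins CD11c and MHC II, shared strain, medium and day, and were taken at once from common cultures. They differed in Ly6G, a surface protein typical of neutrophils: 3 samples were CD11c+/MHC II+/Ly6G+ (Ly6G+ DC) and 3 were CD11c+/MHC II+/Ly6G- (Ly6G- DC), numbered 1 to 3 in each group. Age is not given in the sources used here. Whether the 3 samples of a group are independent cultures is not stated in the labels. The p-values therefore rest on sample-to-sample spread that could be technical.

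A cell enters the cycle when D-type and E-type cyclins, with their kinases, release the E2F transcription factors that switch on replication genes. In S phase the MCM helicase opens the DNA at origins, ribonucleotide reductase and thymidylate enzymes supply deoxynucleotides, and the clamp PCNA holds the polymerases in place. Cyclins A and B with CDK1 then drive mitosis, which needs the spindle motors, the checkpoint and the ubiquitin ligase that starts anaphase. Bone marrow precursors divide in GM-CSF cultures, while mature neutrophils and mature dendritic cells are known to have left the cycle. The level of these genes in a sorted sample reflects both how many of its cells were in cycle and how much RNA each held, and these cannot be told apart in bulk samples.

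The arrays differed in ways the sort does not describe. Median signals ran from 56.0 to 90.8, on the authors' linear scale. Controls spiked in just before hybridization had geometric means of 6688 to 12842 on Ly6G+ DC 2, Ly6G- DC 2 and Ly6G- DC 3 and of 1529 to 2039 on the other arrays. On the same 3 arrays the Actb signal was 3.98 to 6.85 times as high at the 3' as at the 5' end, against 1.17 to 1.49 times on the rest. Both number 1 arrays carry the array name Mouse430_2_2 and the other 4 the name Mouse430_2. Summed signals of 11 neutrophil marker genes were 82534 to 105952 in Ly6G+ DC and 11070 to 26696 in Ly6G- DC, with no overlap. Of 8 dendritic cell markers, all had negative log2 fold changes and 7 (87.5%) did not overlap between groups, against 12.8% of all genes. Their smallest adjusted p by limma was 0.40. Flt3 was dim in Ly6G+ DC, under the 40th percentile of the array on 2 of the 3 arrays.

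None of the 39 cell cycle genes differed between Ly6G+ and Ly6G- dendritic cells by limma with Benjamini-Hochberg adjustment over all genes, where 0% of all 13262 genes passed. The largest differences were of both signs. The mitotic genes Birc5, Mki67 and Ccna2 had higher means in Ly6G+ DC, with Birc5 and Ccna2 dim on Ly6G- DC 3. The thymidylate synthase gene Tyms, which was dim in both groups, and the cyclin gene Ccnd2 had lower ones. At an unadjusted p under 0.05 there were 2 members, Mki67 and Ccnd2, of 39, where 6.9% of all genes lay under that level. The groups did not overlap for 1 member, Tyms, which is 2.56% of members against 12.8% of all genes. Of all genes, 4.95% had every Ly6G+ array above every Ly6G- array and 7.86% the reverse, beside 0 and 1 of the members. Log2 fold changes, Ly6G+ over Ly6G- on the log2(signal + 16) scale, were positive for 23 members and negative for 16, and 44.3% of all genes were positive. Their median was 0.14 beside -0.07 over all genes. With arrays brought to the same median, the median of all genes was 0.24 and that of the members 0.43, with 30 positive and 9 negative. The distance between the members and all genes was thus 0.21 with the authors' scaling and 0.20 with the common median. Removing Ly6G+ DC 3 left 0.03, and removing Ly6G- DC 3 left 0.08.

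**Figure D1:**
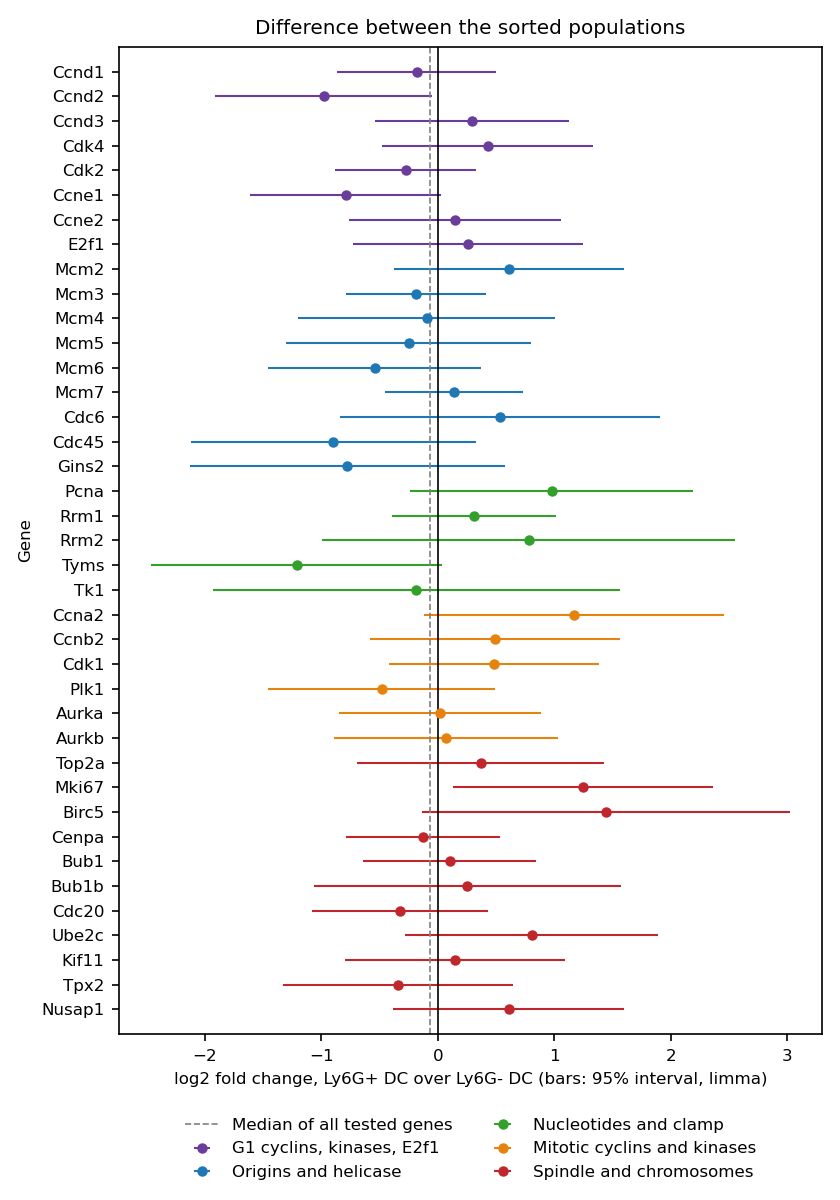
Log2 fold change of each of the 39 measured members, Ly6G+ DC over Ly6G- DC, with 95% intervals from limma (n = 3 arrays per group), coloured by role, with the median of all tested genes as a dashed line. The intervals of 37 members include 0, and those of Ccnd2 and Mki67 end close to it.

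The precision was low. The 95% interval of the difference reached 0.99 to either side of the estimate for the median member, about the size of a 2-fold change. The interval lay within 1 log2 unit of 0 on both sides for 7 members. For most of the genes a 2-fold difference in either direction could therefore have gone unseen with 3 arrays per group.

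Promoter sequence is shown for 4 members because replication and mitotic genes are known for different promoter elements. Mitotic genes often hold a cell cycle homology region (CHR, searched as TTTGAA) near CCAAT boxes, and replication genes often hold E2F sites (searched as TTTGGCGC, TTTCGCGC and TTTCCCGC). The sequences are the 250 bases before the annotated start, from RefSeq on build GRCm38.p6, and capitals mark matches to any of these motifs on either strand. Mki67 lies on the minus strand (chr7:135716380-135716629), Ube2c on the plus strand (chr2:164769679-164769928), Cdk1 on the minus strand (chr10:69352913-69353162) and Mcm6 on the minus strand (chr1:128359706-128359955).
Mki67: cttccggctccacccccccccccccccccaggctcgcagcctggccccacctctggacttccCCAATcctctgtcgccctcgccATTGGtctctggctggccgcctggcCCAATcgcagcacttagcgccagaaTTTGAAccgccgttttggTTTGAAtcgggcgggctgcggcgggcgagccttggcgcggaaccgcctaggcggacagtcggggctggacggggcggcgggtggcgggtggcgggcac
Ube2c: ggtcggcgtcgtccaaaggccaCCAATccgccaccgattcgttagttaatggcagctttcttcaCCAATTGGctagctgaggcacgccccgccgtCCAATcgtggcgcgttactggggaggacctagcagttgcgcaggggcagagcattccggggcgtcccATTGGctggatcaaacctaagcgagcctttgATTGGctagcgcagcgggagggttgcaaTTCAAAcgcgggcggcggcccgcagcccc
Cdk1: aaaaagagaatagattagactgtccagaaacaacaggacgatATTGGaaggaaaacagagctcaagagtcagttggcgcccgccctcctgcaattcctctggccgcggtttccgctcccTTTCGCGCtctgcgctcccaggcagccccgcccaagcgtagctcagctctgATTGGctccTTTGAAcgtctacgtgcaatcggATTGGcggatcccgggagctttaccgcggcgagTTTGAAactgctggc
Mcm6: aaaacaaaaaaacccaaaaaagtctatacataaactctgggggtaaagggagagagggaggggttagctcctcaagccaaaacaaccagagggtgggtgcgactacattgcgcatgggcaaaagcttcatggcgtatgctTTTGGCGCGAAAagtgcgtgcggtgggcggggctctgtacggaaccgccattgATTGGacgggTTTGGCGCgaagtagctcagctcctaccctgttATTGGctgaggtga
Both CHR and CCAAT matches were found in the windows of Mki67, Ube2c and Cdk1, and the E2F matches of Mcm6 include a pair that overlap. RefSeq promoters matched 31 of the measured members. Of 14 promoters of mitotic members, 7 (50%) held both a CHR and a CCAAT match, those of Ube2c, Cdc20, Mki67, Ccnb2, Cdk1, Top2a and Kif11, against 5.55% of all 32851 promoters of this length. Of 13 promoters of replication members, 4 (30.8%) held an E2F match, those of Mcm5, Mcm6, Mcm7 and Cdc6, against 1.53% of all promoters. The elements also crossed between the classes. Both a CHR and a CCAAT match were found for the replication members Mcm2 and Cdc45 (15.4%), and 1 mitotic promoter (7.14%), that of Cdk1, held an E2F match. A match is a description of the letters and no measure of binding.

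Among the 8 genes that control entry into the cycle, the D-type cyclins had log2 fold changes of both signs. Ccnd2, the cyclin D2 gene, had signals of 1420, 3573 and 2459 on Ly6G+ arrays 1 to 3, against 2863, 4925 and 6863 for Ly6G- DC. The groups overlapped through Ly6G+ DC 2, which lay above Ly6G- DC 1. Means were 2484 ± 1077 and 4884 ± 2000 (SD, n = 3), a log2 fold change of -0.98 ± 0.42 (SE; 95% interval -1.91 to -0.05) with an adjusted p of 0.71 by limma. The 3 arrays with bright hybridization controls were also the 3 highest for Ccnd2, and within the arrays of dim and of bright controls the log2 differences were -0.61 and -0.70. Each such part has 1 array in at least 1 of the groups, so these differences carry no error. Within the array names the log2 differences were -1.0 for number 1 and -0.97 for numbers 2 and 3. The parts by array name share arrays with the parts by controls.

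All 7 kept probe sets of Ccnd2 had negative log2 fold changes, from -1.22 to -0.19. One of them, 1430127_a_at, separated the groups, with 1320, 1421 and 1176 in Ly6G+ DC, while Ly6G- DC had 2135, 1970 and 2687. Its log2 fold change was -0.78 ± 0.28 (SE), with an adjusted p of 0.84 by limma over the 23210 kept probe sets with 1 gene symbol. On that probe set Ly6G- DC 1, with dim controls, lay above Ly6G- DC 2, with bright ones, and Ly6G- DC 3 was highest. Probe sets of a gene share the same RNA and are not replicates.

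**Figure D2:**
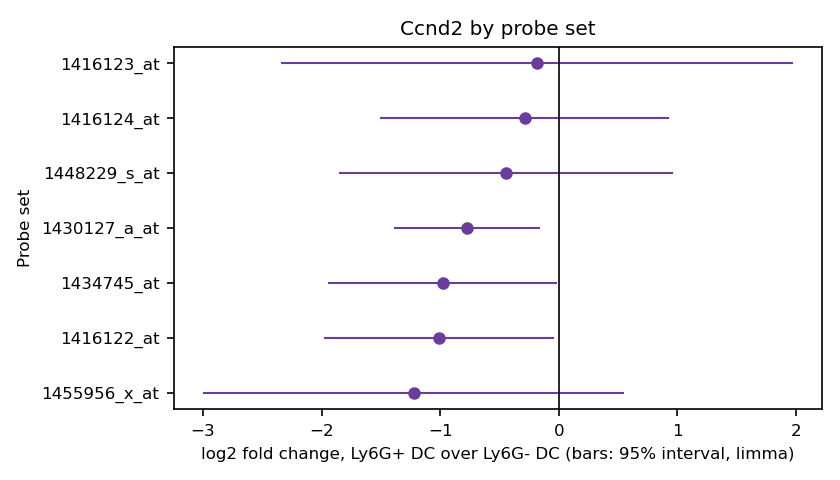
Log2 fold change, Ly6G+ DC over Ly6G- DC, for the 7 kept probe sets of Ccnd2 with 95% intervals from limma (n = 3 arrays per group). All lie below 0, and the interval is narrowest for 1430127_a_at at -0.78.

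Ccnd1 and Ccnd3, the other D cyclins, had log2 fold changes of -0.18 ± 0.31 and 0.30 ± 0.38 (SE). Ccnd1 lay between 212 and 365 on all arrays, and the groups overlapped. Ccnd3 was brightest on both number 1 arrays, with 1513 in Ly6G+ DC and 1115 in Ly6G- DC, and lay between 564 and 718 on the other 4. Cdk4, the kinase partner of the D cyclins, had 0.43 ± 0.41, again with both number 1 arrays highest (788 and 828) and Ly6G- DC 3 lowest (251).

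Ccne1, a cyclin E gene, had signals of 250, 246 and 206 in Ly6G+ DC, while Ly6G- DC had 236, 460 and 653. The Ly6G+ arrays lay close together, and Ly6G- DC 1 lay among them while Ly6G- DC 2 and 3 stood above. The log2 fold change was -0.79 ± 0.37 (SE), with an adjusted p of 0.71 by limma. It was 0.08 within the number 1 arrays and -1.23 within numbers 2 and 3. The other kept probe set of Ccne1 had -0.23 ± 0.47. Ccne2, the other cyclin E gene, Cdk2, the kinase of both, and E2f1, the transcription factor they release, had 0.15 ± 0.41, -0.28 ± 0.27 and 0.26 ± 0.45 (SE). E2f1 was highest on Ly6G+ DC 1 at 488, against 124 to 262 on the other arrays, and was -0.22 without that array. The median of the 8 genes was -0.02, with 4 positive and 4 negative.

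Genes of the replication origins showed array differences larger than the group difference. The 6 MCM genes encode the ring of the replicative helicase, Cdc6 loads it, and Cdc45 and Gins2 join it to make it active. Of these 9 genes 3 were positive and 6 negative, with a median of -0.19. That median was 0.13 with a common median per array, 0.07 with a block for the control brightness, 0.20 without Ly6G+ DC 1 and 0.12 without Ly6G- DC 2. On the probe sets used, Mcm4, Mcm5 and Mcm6 were dimmest on both number 1 arrays, which their other kept probe sets did not show. Mcm5 had 156, 534 and 398 in Ly6G+ DC, while Ly6G- DC had 236, 656 and 372, so that the spread within each group exceeded the difference of -0.25 ± 0.48 (SE). Mcm4 and Mcm6 had -0.10 ± 0.50 and -0.54 ± 0.41. Mcm3 and Mcm7 varied least, with 318 to 447 and 565 to 825 over all arrays and log2 fold changes of -0.19 ± 0.27 and 0.14 ± 0.27.

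Mcm2 had the highest positive value of the MCM genes, 0.61 ± 0.45 (SE), with signals of 100, 370 and 292 in Ly6G+ DC, while Ly6G- DC had 121, 170 and 137. The Ly6G- values lay between the lowest and the higher 2 Ly6G+ values. Its other kept probe set had the opposite sign, -0.29 ± 0.39. Cdc45 and Gins2 had -0.90 ± 0.55 and -0.78 ± 0.61, each with a wide spread in Ly6G+ DC, from 41.3 to 296 and from 39.4 to 207. Cdc6 was dim, with 60.6 to 98.7 on all arrays but Ly6G- DC 1, where it was 8.1. With that value far under its array's 40th percentile, the difference is given as a bound, at least 1.01-fold higher in Ly6G+ DC. The fitted log2 fold change was 0.53 ± 0.62 (SE), and -0.14 without that array.

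The 5 genes of deoxynucleotide supply and of the clamp had a median of 0.31, with 3 positive and 2 negative, and wide spreads between arrays. Pcna, the sliding clamp, had signals of 3109, 1022 and 3306 in Ly6G+ DC, while Ly6G- DC had 2436, 894 and 618. The 3 highest arrays, at 2436 to 3306, were those with dim hybridization controls, and the 3 lowest, at 618 to 1022, those with bright controls, across both groups. The log2 fold change was 0.98 ± 0.55 (SE; 95% interval -0.24 to 2.19), with an adjusted p of 0.72 by limma, and it was 0.39 within the arrays of dim and 0.45 within those of bright controls. With the controls' brightness as a block it was 0.42. Rrm1, the large subunit of ribonucleotide reductase, split the arrays the same way, with 250 to 346 against 190 to 209, and had 0.31 ± 0.32. E2f1 did so too. The part of hybridization or RNA quality in these values was not tested.

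Rrm2, the small subunit of ribonucleotide reductase, ranged from 86.7 on Ly6G- DC 3 to 1054 on Ly6G- DC 2, so that both extremes were in 1 group, and its log2 fold change was 0.78 ± 0.80 (SE). Tk1, thymidine kinase of S phase, was under 20 on Ly6G+ DC 2 and Ly6G- DC 3 and between 110 and 168 on the other 4 arrays, with -0.18 ± 0.79. Tyms, thymidylate synthase, was the member whose groups did not overlap. It had 51.3, 12.8 and 15.6 in Ly6G+ DC, while Ly6G- DC had 70.3, 75.2 and 80.5. The Ly6G- values lay close together, and Ly6G+ DC 1 lay nearer to them than to the other Ly6G+ arrays. Tyms was dim in Ly6G- DC too, each value lying under its array's median signal of 79.8, 87.4 and 90.8. Since 2 Ly6G+ arrays lay under their 40th percentiles, the difference is given as a bound, at least 1.44-fold lower in Ly6G+ DC, with a fitted log2 fold change of -1.21 ± 0.57 (SE) and an adjusted p of 0.71 by limma. Only 1 of 4 Tyms probe sets was bright enough to be kept.

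The 6 measured mitotic cyclin and kinase genes varied together over the arrays. Over the 6 arrays their 15 pairs all had a positive Pearson's r, with a median of 0.81, as a description of points that share each array's RNA and scaling. Their mean, centred on each gene, was -0.25, 0.32 and 0.38 for Ly6G+ DC 1 to 3, and -0.19, 0.71 and -0.96 for Ly6G- DC. The highest and the lowest array were thus both Ly6G- DC, and both number 1 arrays lay close to each other below the mean.

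Ccna2, cyclin A2, had signals of 352, 549 and 508 in Ly6G+ DC, while Ly6G- DC had 341, 380 and 51.8. Ly6G- DC 3 stood far below all the others, under its array's 40th percentile of 61.7. The remaining Ly6G- arrays overlapped with Ly6G+ DC 1. The log2 fold change was 1.17 ± 0.58 (SE; 95% interval -0.12 to 2.46), with an adjusted p of 0.71 by limma. It was 0.04 within the number 1 arrays and 1.73 within numbers 2 and 3, and the other kept probe set of Ccna2 had 0.35 ± 0.53. Cdk1, the mitotic kinase, had 300, 490 and 434 in Ly6G+ DC, while Ly6G- DC had 242, 535 and 169, with the Ly6G- arrays at both ends and a log2 fold change of 0.48 ± 0.41. Ccnb2, a cyclin B gene, was also highest on Ly6G- DC 2 and lowest on Ly6G- DC 3, and its value of 0.49 ± 0.49 was -0.03 without Ly6G- DC 3.

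Plk1, Aurka and Aurkb encode mitotic kinases of the centrosome, spindle and kinetochore. Each was highest on Ly6G- DC 2, with 380, 224 and 223. Their log2 fold changes were -0.48 ± 0.44, 0.016 ± 0.392 and 0.07 ± 0.44 (SE). The median of the 6 genes was 0.28, and it was -0.09 when Ly6G- DC 3 was removed and 0.70 when Ly6G- DC 2 was. Its sign thus differed with Ly6G- DC 3 in or out.

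**Figure D3:**
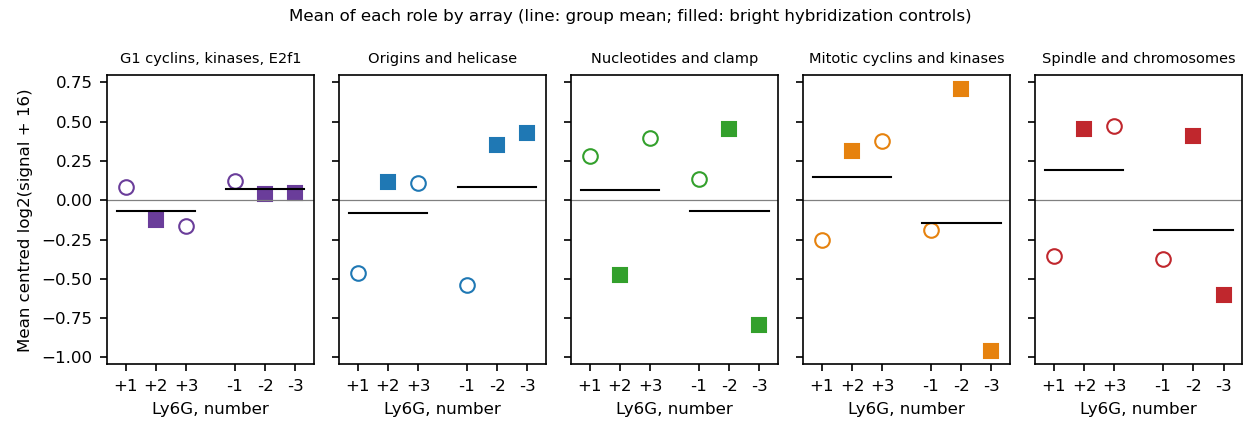
Mean of log2(signal + 16), centred on each gene, over the members of each of 5 roles, 1 point per array, with Ly6G+ arrays 1 to 3 at the left of each panel, Ly6G- arrays at the right and a line at each group mean. Filled squares are arrays with bright hybridization controls and open circles those with dim ones. For the mitotic cyclins and kinases, Ly6G- DC 2 lies highest at 0.71 and Ly6G- DC 3 lowest at -0.96.

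Among the 11 genes of the spindle, the chromosomes and the anaphase ligase, the proliferation marker Mki67 had signals of 430, 646 and 1097 in Ly6G+ DC, while Ly6G- DC had 303, 551 and 120. Ly6G+ DC 1 lay between Ly6G- DC 1 and 2, so the groups overlapped. Means were 724 ± 340 and 325 ± 216 (SD, n = 3), a log2 fold change of 1.25 ± 0.50 (SE; 95% interval 0.13 to 2.36) with an adjusted p of 0.71 by limma. The difference for Mki67 was 1.14 and 1.25 on arrays of dim and bright controls. It was 0.48 within the number 1 arrays and 1.63 within numbers 2 and 3. It was 0.70 without Ly6G- DC 3, the lowest of the values left after removing 1 array.

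Birc5, which encodes survivin, a subunit of the chromosomal passenger complex, had 213, 260 and 543 in Ly6G+ DC, while Ly6G- DC had 173, 279 and 15.3. The extremes were Ly6G+ DC 3 and Ly6G- DC 3, the latter under its array's 40th percentile of 61.7. The other 4 arrays lay within 173 to 279 with the groups mixed. Its log2 fold change of 1.44 ± 0.72 (SE) was the highest of the members, with an adjusted p of 0.71 by limma, and was 0.27 within the number 1 arrays. Ube2c, the ubiquitin-conjugating enzyme of the anaphase ligase, had 473, 656 and 1139 against 510, 700 and 173, with the same 2 arrays at the ends and a log2 fold change of 0.80 ± 0.49.

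Top2a, the topoisomerase that untangles sister chromosomes, had 262, 790 and 769 in Ly6G+ DC, while Ly6G- DC had 270, 758 and 354, so that numbers 1 and 2 were nearly the same in both groups. Its log2 fold change was 0.37 ± 0.48 (SE). Nusap1, which bundles spindle microtubules, had 199, 559 and 572 against 216, 421 and 185, and 0.61 ± 0.45. Kif11, a spindle motor, and Tpx2, an activator of Aurora A, had 0.15 ± 0.43 and -0.34 ± 0.45. On the probe set used, Tpx2 had its lowest signal of 72.0 on Ly6G+ DC 3 and its highest of 274 on Ly6G- DC 3. Another kept probe set of Tpx2 was highest on Ly6G+ DC 3, with 114, 131 and 221 for Ly6G+ DC 1 to 3, against 115, 211 and 135 for Ly6G- DC.

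The checkpoint kinase genes Bub1 and Bub1b had 0.10 ± 0.34 and 0.25 ± 0.60 (SE). The other kept probe set of Bub1, a dim one, had the opposite sign and is given as a bound, at least 1.52-fold lower in Ly6G+ DC. Another kept probe set of Bub1b did not overlap between groups, with 148 to 266 in Ly6G+ DC and 112 to 135 in Ly6G- DC and a log2 fold change of 0.69 ± 0.35. Of the 44 kept probe sets of members that were not used, 4 (9.09%) did not overlap, against 11.6% of all 23210. Cdc20, the activator of the anaphase ligase, and Cenpa, the centromeric histone, were negative, with -0.32 ± 0.34 and -0.13 ± 0.30, and the other kept probe set of Cdc20 had 0.45 ± 0.67. Cenpa was bright throughout, from 956 to 1613. The median of the 11 genes was 0.25, with 8 positive and 3 negative. It was 0.04, 0.10 and 0.07 without Ly6G+ DC 2, Ly6G+ DC 3 and Ly6G- DC 1, and 0.67 and 0.79 without Ly6G+ DC 1 and Ly6G- DC 2. It changed little without Ly6G- DC 3.

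**Figure D4:**
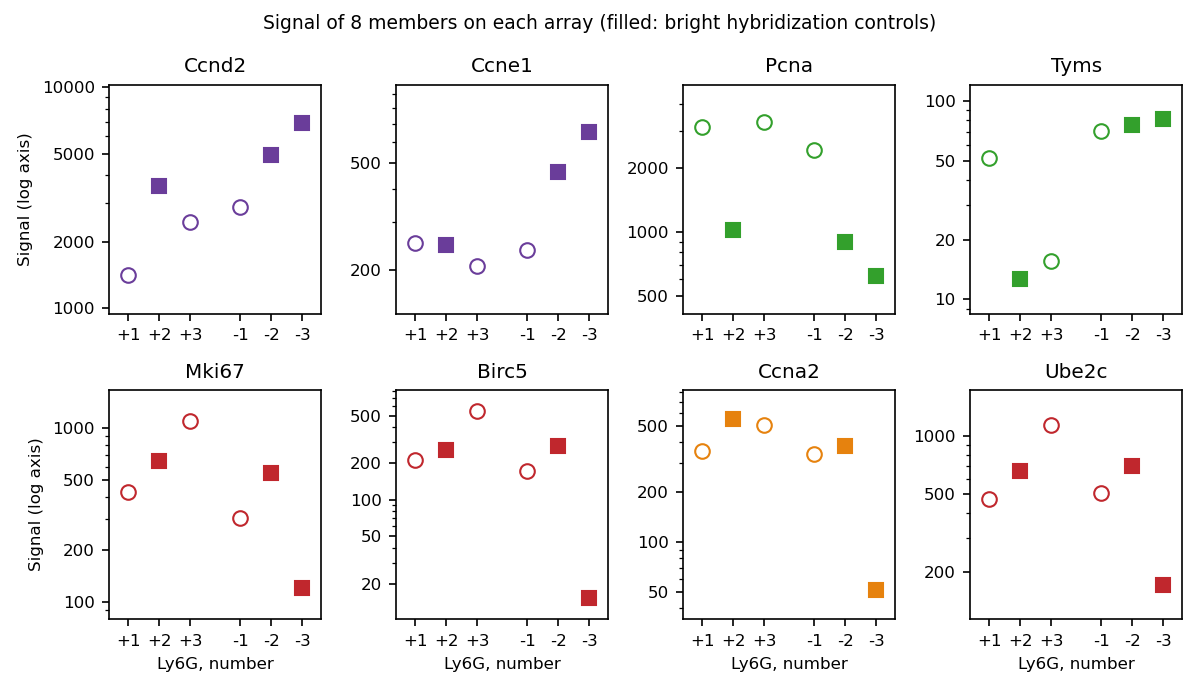
Signals of 8 members on each array (log axis), with Ly6G+ arrays 1 to 3 at the left and Ly6G- arrays at the right of each panel, and filled squares for arrays with bright hybridization controls. Tyms, dim throughout, separates the groups. Pcna separates arrays by their controls with 618 to 1022 against 2436 to 3306, and Mki67, Birc5, Ccna2 and Ube2c are lowest on Ly6G- DC 3.

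Over all 39 members, Ly6G- DC 2 held the highest signal of 12 and the lowest of 0, while Ly6G- DC 3 held the highest of 9 and the lowest of 14. On Ly6G- DC 3 the replication origin genes were high, with a centred mean of 0.43, and the mitotic genes low, with -0.96 and -0.60 for the 2 mitotic roles. The 5 genes of deoxynucleotide supply and of the clamp were also low there, with -0.79. Over both replication roles together the centred mean was -0.0065. These means rest on the probe set used for each gene. Ly6G- DC 3 also had the lowest summed neutrophil markers, 11070. Its summed dendritic cell markers were the highest, 88409 against 39356 and 54636 on Ly6G- DC 1 and 2. Fscn1, the dendritic cell marker whose groups overlapped, gave 53210 of that 88409. It gave 11371 and 34840 of the sums on Ly6G- DC 1 and 2. Of 7 markers of dividing granulocyte precursors, 4 were kept, and their summed signals were 629 to 998 in Ly6G+ DC and 737 to 1579 in Ly6G- DC, highest on Ly6G- DC 3. Without Prtn3, a choice made after seeing that it gave 1187 of that 1579, the sums were 212 to 493 and 287 to 392. The highest sum was then 493 on Ly6G+ DC 1, and Ly6G- DC 3 had the highest Ly6G- sum, 392. The markers differed on Ly6G- DC 3. Mpo had its lowest signal there, 76.5, while Elane had 172, against 34.4 and 67.6 on the other Ly6G- arrays. Ms4a3 had 144 there, between the 102 and 186 of the other Ly6G- arrays. Of 10 lymphocyte markers, 6 were kept, with sums of 663 to 1304 in Ly6G+ DC and 1608 to 2170 in Ly6G- DC. Klrd1 and Zap70 gave most of each sum. Groups did not overlap for 3 of the markers (50%, against 12.8% of all genes), Klrd1, Zap70 and Ms4a1. They overlapped for Ncr1, Cd79a and Cd79b. The T cell genes Cd3e and Cd3g were too dim to be kept. Of 8 markers of mast cells, basophils and eosinophils, 6 were kept, and groups did not overlap for 2 (33.3%, against 12.8% of all genes). These were the eosinophil granule genes Prg2 and Epx, higher on every Ly6G+ array, with log2 fold changes of 2.61 ± 0.52 and 1.98 ± 0.63 (SE). Prg2 and Epx were lowest on Ly6G- DC 3, at 114 and 12.1. Kit and Gata2 had negative values of -0.17 ± 0.35 and -0.25 ± 0.29, and Cpa3 and Mcpt8, which were dim, had positive ones, all with overlap. The part of other cell types in the mitotic values was not tested.

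The array name in the titles sets 4 arrays against both number 1 arrays, an unequal split, so its shares cannot be set beside those of the sort. All 4 arrays named Mouse430_2 lay above both number 1 arrays for 10 members (25.6%, against 15.1% of all genes): Mcm2, Mcm4, Mcm5, Mcm6, Plk1, Top2a, Cenpa, Bub1b, Cdc20 and Kif11. They lay below for Ccnd3, Cdk4 and E2f1 (7.69%, against 13.6% of all genes). These counts rest on the probe set used for each gene. No other kept probe set of Mcm2, Mcm4, Mcm5, Mcm6, Top2a, Cenpa or Bub1b placed all 4 arrays above both number 1 arrays. That of Cdc20 did, and those of Kif11 differed. Among the lower genes the other kept probe sets of E2f1 split the arrays alike, those of Ccnd3 did not, and those of Cdk4 differed. Between arrays of bright and dim hybridization controls, 5 members lay higher (12.8%, against 16.9%) and 3 lower (7.69%, against 11.6%), shares below those of all genes.

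**Figure D5:**
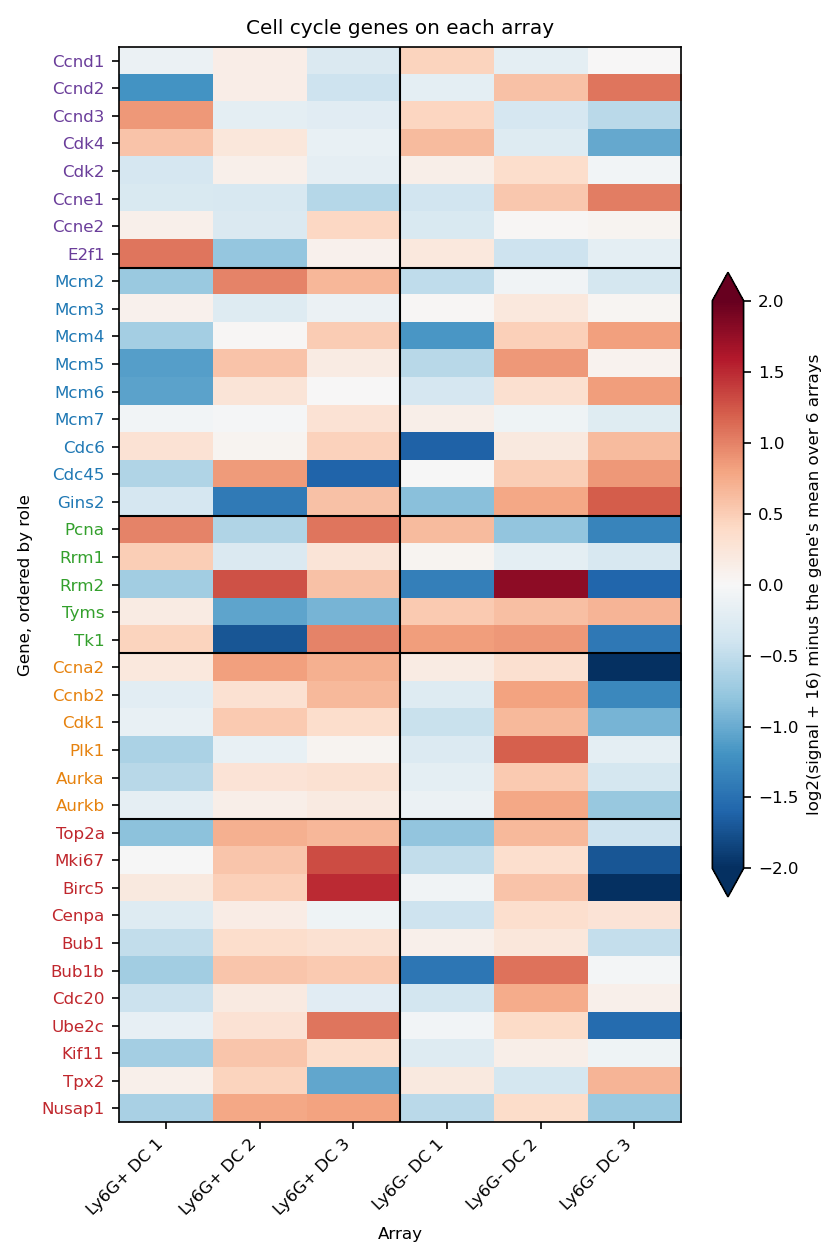
Log2(signal + 16) of the 39 members on each array minus the gene's mean over the 6 arrays, with genes ordered by role and a line between the Ly6G+ and Ly6G- arrays. For the 11 spindle, chromosome and anaphase genes the column means are -0.36 and -0.37 on the number 1 arrays and -0.60 on Ly6G- DC 3, and 0.41 to 0.47 on the other 3.

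Further genes of the same pathways, listed from textbook roles, were read the same way. Of 43 other replication genes 40 were tested and 0 passed limma's adjusted test, with 21 positive and 19 negative, a median of 0.03, and 3 under an unadjusted p of 0.05. Groups did not overlap for 4 of them (10%, against 12.8% of all genes). Gmnn, which encodes geminin, the inhibitor of origin licensing, had 578, 685 and 989 in Ly6G+ DC, while Ly6G- DC had 336, 414 and 384. Its log2 fold change was 0.93 ± 0.29 (SE; 95% interval 0.28 to 1.58) with an adjusted p of 0.69 by limma, and was 1.13 and 0.76 within the dim and the bright hybridization controls. Slbp, the histone mRNA binding protein, was also higher on every Ly6G+ array, with 0.45 ± 0.27. Pold3, a subunit of DNA polymerase delta, and Gins3, a partner of Gins2 in the GINS complex, were lower on every Ly6G+ array, with -0.80 ± 0.29 and -0.82 ± 0.34.

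Of 53 other mitotic genes 52 were tested and 0 passed limma's adjusted test, with 1 under an unadjusted p of 0.05. They had 39 positive and 13 negative values and a median of 0.25, the same as the 17 measured mitotic members, of which 13 were positive. Their centred mean per array was low on the same 3 arrays as that of the spindle and chromosome members, with -0.33, 0.40 and 0.39 for Ly6G+ DC 1 to 3, against -0.40, 0.38 and -0.44 for Ly6G- DC. Groups did not overlap for 2 of them (3.85%, against 12.8% of all genes). Cdc25b, a phosphatase that activates CDK1, had 245, 367 and 284 against 105, 244 and 170, a log2 fold change of 0.78 ± 0.36 (SE), and Tacc3, a spindle protein, had 0.76 ± 0.47.

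Of a list of 21 genes, most of them inhibitors of the cycle or genes of cell cycle exit, with the G1 kinase gene Cdk6 among them, 19 were tested, with 0 passing limma's adjusted test, 0 under an unadjusted p of 0.05 and a median of 0.05. Groups did not overlap for 2 of them (10.5%, against 12.8% of all genes). One was Cdkn2d, an inhibitor of CDK4 and CDK6, with 1015, 863 and 1101 in Ly6G+ DC, while Ly6G- DC had 793, 663 and 516. Its log2 fold change was 0.60 ± 0.28 (SE). The other was Cdk6 itself, with 0.35 ± 0.26.

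The genes whose values followed the mean of the members most closely over the 6 arrays were Klrb1f, Ptch1, Snx3, Cdca3 and Chst1, with Pearson's r of 0.997, 0.996, 0.988, 0.981 and 0.977 among 13223 other genes. This is a rank over 6 points that share each array's scaling. Cdca3, a mitotic entry gene, is the one of them that is on the lists used here. It had 196, 540 and 563 in Ly6G+ DC, while Ly6G- DC had 214, 672 and 173, low on both number 1 arrays and on Ly6G- DC 3.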

How the data were processed

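Each value was a linear intensity for 1 probe set, as deposited, and the authors had brought every array to the same mean of 250, computed without the lowest and highest 2%. MAS5, GCOS and Affymetrix Expression Console 2.0 are the programs in the submitters' processing notes, with other settings not given in the sources used here. Per the labels' protocols, 200 ng of RNA per sample was copied from an oligo-dT primer.

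Of 45101 probe sets, 34958 had 1 gene symbol in the platform annotation, and only these were named. Signals were analysed as log2(signal + 16), which understates folds of dim genes. Probe sets above the 40th percentile of an array on 3 or more arrays were kept, and a gene was read from its brightest kept probe set. All 39 measured members were kept, 32 of them above the percentile on all arrays, and 12 were read from probe sets named _x_at or _s_at, which may bind other transcripts. The test was that of limma 3.58.1, run in R 4.3.3 with group as the only term and an intensity trend, with calls at an adjusted p under 0.05, and the code was tested on simulated data. Where the dimmer group's mean lay under its arrays' mean 40th percentile, the fold is a bound against the higher of the value and the percentile. Such a bound makes no allowance for the spread between arrays.

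Members and lists were chosen with earlier results of these data known. All members could be named, and of each other cell cycle list up to 4 genes with no overlap between groups and the smallest p. Brightness of the hybridization controls was split at its widest gap. The list of macrophage markers had 8 tested genes and a median log2 fold change of 0.02, that of mast cell, basophil and eosinophil markers 6 and 0.81, and that of erythroid markers 2 and 0.40. The 5 genes listed for CD11c and MHC II had a median of -0.57.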

Additional observations from a re-analysis of the deposited data

How the results depend on the processing

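Across the 18 alternatives 0 of the members passed limma's adjusted test in any, with a smallest adjusted p of 0.16. The other cell cycle genes also stayed at 0. Under an unadjusted p of 0.05 by limma there were 0 to 8 members. There were 8 (20.5%, against 14.6% of all genes) without Ly6G- DC 1. Without Ly6G- DC 2 there were 7 (17.9%, against 5.91% of all genes): Birc5, Ccna2, Ccnb2, Cdk1, Mki67, Rrm2 and Ube2c. Without Ly6G+ DC 3 there were 0 (2.83% of all genes), and without Ly6G- DC 3 also 0 (3.63%). The members' median log2 fold change stayed positive, from 0.0069 without Ly6G+ DC 3 to 0.43 with a common median. Counts of all genes past the threshold were 0 in the fit as reported, 2 with quantile normalization, 8 with a common median, 1 with a pseudocount of 1, 9 with 64, 2 with the mean of a gene's probe sets, 1 without the intensity trend, 9 with a block for the hybridization control side, 19 with the array name as a block, and 0 to 26 without 1 array. With the replicate block the count was 20, and 5 members (12.8%, against 11.8% of all genes) lay under an unadjusted p of 0.05. Deviations from the group means correlated by 0.50, 0.22 and -0.05 for the numbers 1, 2 and 3. Not every array correlated best with its own number. With 3 arrays per group this cannot decide whether the numbers are pairs. If they are, the fit as reported ignores the pairing. Both number 1 arrays share an array name, and shared cultures are not assigned to arrays in the labels.

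Of 698 values of members under these alternatives, 658 kept their sign and 40, of 19 members, did not. With a common median Ccnd1 had 0.13, Cdk2 0.048, Mcm3 0.13, Mcm4 0.23, Mcm5 0.068, Tk1 0.10 and Cenpa 0.20. With the mean of the probe sets Mcm4 had 0.059, Bub1 -0.47, Cdc20 0.061 and Kif11 -0.10. With a block for the hybridization control side E2f1 had -0.055, Mcm4 0.22, Mcm5 0.095 and Cenpa 0.046. Without 1 array, the values ran from -0.70 to 0.29 for Mcm4, -0.60 to 0.24 for Mcm5, -0.94 to 0.62 for Tk1, -0.36 to 0.010 for Cenpa, -0.11 to 0.37 for Bub1, -0.092 to 0.52 for Kif11, -0.22 to 0.71 for E2f1, -0.062 to 0.58 for Ccnd3, -0.16 to 0.30 for Aurka, -0.020 to 0.33 for Ccne2, -0.65 to 0.098 for Tpx2, -0.14 to 0.98 for Cdc6, -0.40 to 0.86 for Bub1b, -0.030 to 1.02 for Ccnb2 and -0.29 to 0.48 for Aurkb. The cause was not tested. The number of 3 arrays per group limits the precision.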

Other observations

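Probe sets of 1 gene did not always rank the arrays alike. Among 25 members with other kept probe sets, 14 of 44 of these, of 13 genes, had a log2 fold change of the opposite sign to the one used. Rrm2 had 176, 735 and 446 in Ly6G+ DC, while Ly6G- DC had 103, 1054 and 86.7 on the probe set used, with Ly6G+ DC 2 and Ly6G- DC 2 highest. On 1416120_at it had 104, 16.5 and 131 against 123, 33.9 and 4.9, with those 2 arrays among the 3 lowest. Mcm3 had 318 to 447 on all arrays on the probe set used. On 1426653_at it ran from 8.0 on Ly6G- DC 2 and 16.5 on Ly6G+ DC 2 to 187 on Ly6G- DC 1. Mcm6 overlapped between groups on the probe set used. On 1447756_x_at it had 21.2, 32.0 and 31.8 in Ly6G+ DC, while Ly6G- DC had 67.7, 91.3 and 89.5. All 3 Ly6G+ values lay under their arrays' 40th percentiles, a bound of at least 1.59-fold lower in Ly6G+ DC. The fitted log2 fold change was -1.16 ± 0.49 (SE), with an adjusted p of 0.84 by limma. On 1416251_at Mcm6 had 0.35 ± 0.38, with its highest signal of 654 on Ly6G- DC 1 and its lowest of 267 on Ly6G- DC 3.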
